A study of Homo sapiens with 10 samples.

Results

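Amine degradation, and with DDC amine synthesis, was followed through 9 genes. These are the monoamine oxidases MAOA and MAOB, the copper amine oxidases AOC2 and AOC3, histamine N-methyltransferase (HNMT), aromatic L-amino acid decarboxylase (DDC), spermidine/spermine acetyltransferase (SAT1) and the polyamine oxidases PAOX and SMOX. They were chosen by name for their place in amine metabolism, with earlier results of these data known, and MAOA and MAOB also because they are known targets of KLF11. All 9 were measured, out of 18377 genes that the array names alone on a transcript cluster, the set of probes read as a single gene. Each is represented by the cluster with the highest mean level, and only AOC3 has 2 clusters. The cells were Panc1, an established epithelial line from a human pancreatic carcinoma. They were transduced for 48 h with adenovirus carrying wild type KLF11, the A347S mutant (KLF11-347), the Δ486 mutant (KLF11-486), the EAPP mutant (KLF11-EAPP) or empty vector (EV), all at a multiplicity of infection of 150. A347S was made to uncouple KLF11 from WD40-domain proteins, Δ486 from HP1 and histone methyltransferases, and EAPP from the Sin3 scaffold and its histone deacetylases. Expression of the tagged constructs was driven by the viral vector in cells that keep their own KLF11, so each condition adds a protein and removes none, and the EV cells carry the same virus without an insert. There were 10 arrays in 5 groups of 2. The methods and the extract protocol describe duplicate arrays of RNA pooled from 3 cultures, whereas the titles number biological replicates, so the errors and p-values given here measure the spread between arrays and may leave out that between cultures. The questions addressed are whether the amine enzymes changed with KLF11, and whether a mutant changed them differently.

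Monoamine oxidases are flavoenzymes of the outer mitochondrial membrane that oxidise serotonin, noradrenaline, dopamine and trace amines to aldehydes, with hydrogen peroxide and ammonia as by-products. Copper amine oxidases do the same to primary amines at the cell surface or outside the cell, while the polyamines spermidine and spermine are first acetylated by SAT1 and then oxidised by PAOX, or oxidised directly by SMOX. The aldehydes are cleared by aldehyde dehydrogenases. KLF11 is a zinc finger protein that binds GC-rich promoter elements, and in other cells it is known to act at such elements in the MAOA and MAOB promoters, where the related SP1 also binds.

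The promoters of the monoamine oxidases and of the 2 genes that changed most, AOC2 and SAT1, are shown because KLF11 reads such sequence. Each line holds the 250 bases before a RefSeq transcription start (GRCh38.p14), written along the gene's strand. Capitals mark the letters CCCCGC (labelled the GC box form) or CCCCAC (the CA form) on either strand, the opposite strand reading GCGGGG or GTGGGG. Only these letters were searched, and other GC-rich stretches stay in lower case.
MAOA: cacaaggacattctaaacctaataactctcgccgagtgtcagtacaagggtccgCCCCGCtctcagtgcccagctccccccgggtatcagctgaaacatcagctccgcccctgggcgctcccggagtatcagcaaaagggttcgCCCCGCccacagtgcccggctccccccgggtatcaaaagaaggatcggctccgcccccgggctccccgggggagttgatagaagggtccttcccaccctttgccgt
MAOB: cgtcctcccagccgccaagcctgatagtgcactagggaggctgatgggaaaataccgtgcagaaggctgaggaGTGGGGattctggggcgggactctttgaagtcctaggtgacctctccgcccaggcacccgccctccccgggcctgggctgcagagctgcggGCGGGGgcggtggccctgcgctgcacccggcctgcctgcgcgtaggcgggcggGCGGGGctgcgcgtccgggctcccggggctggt
AOC2: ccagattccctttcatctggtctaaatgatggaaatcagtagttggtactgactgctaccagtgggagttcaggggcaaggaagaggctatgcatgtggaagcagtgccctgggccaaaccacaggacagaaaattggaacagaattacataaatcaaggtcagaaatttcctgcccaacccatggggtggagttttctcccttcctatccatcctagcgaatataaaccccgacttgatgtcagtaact
SAT1: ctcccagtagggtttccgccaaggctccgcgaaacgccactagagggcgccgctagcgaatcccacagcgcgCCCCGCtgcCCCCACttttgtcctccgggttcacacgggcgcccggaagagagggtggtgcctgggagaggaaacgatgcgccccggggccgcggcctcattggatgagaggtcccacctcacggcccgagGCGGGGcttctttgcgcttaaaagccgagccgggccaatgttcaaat
The MAOA window is chrX:43656049-43656298 (plus strand), and lies inside the annotated span of the gene, which has an earlier start. The MAOB window is chrX:43882451-43882700 (minus strand), the AOC2 window chr17:42844330-42844579 (plus strand) and the SAT1 window chrX:23782923-23783172 (plus strand). MAOA and MAOB, at chrX:43655006-43746817 and chrX:43766610-43882450, are neighbours with 19792 bases between them. AOC2 and AOC3, at chr17:42844580-42850707 and chr17:42851199-42858124, lie 491 bases apart.

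The MAOA window held 2 matches, both CCCCGC, whose first bases lie 196 and 106 bases before the start. The MAOB window held 3 matches on its opposite strand, a CCCCAC beginning 177 bases before the start and CCCCGC at 86 and 33 bases. SAT1 also held 3, a CCCCGC at 178 and a CCCCAC at 169 bases, and a CCCCGC on the opposite strand at 47 bases. AOC2 held 0 in a window with a GC content of 46.8%, against 63.2% for MAOA, 72% for MAOB and 66.4% for SAT1. HNMT held 2 CCCCAC matches, and the 2 starts of DDC held 0 and 1. In all, 6 of the 9 genes, with 7 windows, were listed in the promoter table, and AOC3, PAOX and SMOX were not. Among all 35116 listed windows of this length, 54.1% held at least 1 match, 31.3% at least 2 and 17.9% at least 3, with CCCCGC in 39.3% and CCCCAC in 30.3%, so the matches are common letters and are given as a description.

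**Figure D1:**
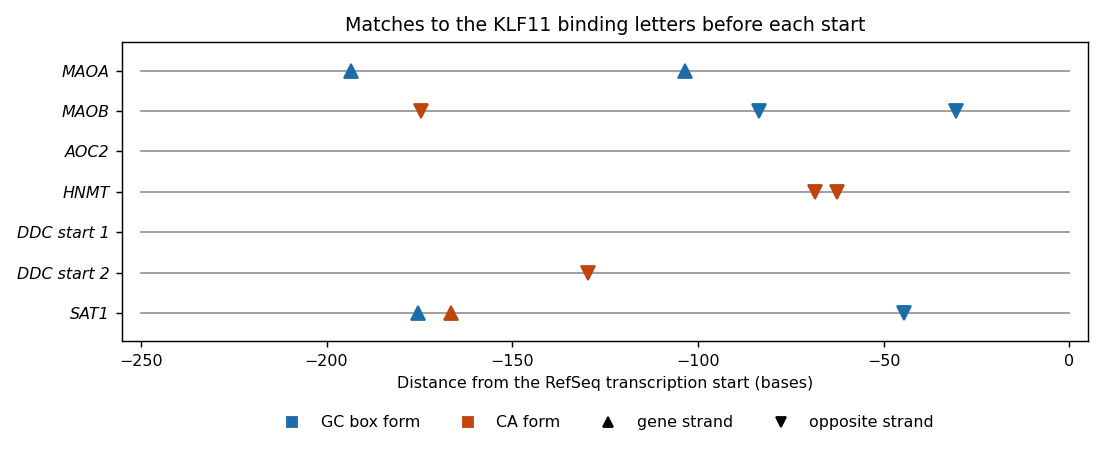
Matches to CCCCGC (blue) and CCCCAC (orange) in the 250 bases before each listed start, with distance from the start in bases on the horizontal axis and a line for each of the 7 windows; upward triangles lie on the gene's strand and downward ones on the opposite strand. MAOB and SAT1 hold 3 matches each, MAOA 2 and AOC2 0.

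The values are log2 levels as the authors normalised them. Array medians were 6.81 to 6.87, and 20961 clusters with a gene symbol were tested together. A gene is said to have risen or fallen where limma's moderated test gave an adjusted p under 0.05 with a fold change of 1.5 or more, which is 0.58 on the log2 scale. The KLF11 cluster read 8.82 and 8.85 with wild type KLF11, 8.85 and 8.88 with A347S, 8.72 and 8.83 with Δ486, 8.78 and 8.68 with EAPP, against 8.37 and 7.75 with EV. On the log2 scale it rose by 0.77 with wild type KLF11 (adjusted p = 0.0094), by 0.81 with A347S (adjusted p = 0.0040) and by 0.71 with Δ486 (adjusted p = 0.011), and the EAPP difference was 0.67 (adjusted p = 0.28). Without EV replicate 2 the differences for wild type KLF11, A347S and Δ486 were 0.46, 0.50 and 0.40 and were no longer called. The call with wild type KLF11 was also lost without either of its own arrays and that with Δ486 without Δ486 replicate 2, and no source used here says whether the cluster's probes read the viral transcript. For protein, the paper reports a Western blot in which tagged wild type KLF11, A347S, Δ486 and EAPP were overexpressed to a similar degree. Of the epithelial markers KRT18 had a mean of 13.00 and CDH1 4.93, while markers of acinar, islet and endothelial cells averaged from 3.86 (GCG) to 6.34 (CELA3A). Fibroblast markers averaged from 3.99 (DCN) to 6.14 (COL1A2), and those of monoaminergic neurons and chromaffin cells from 5.18 (SLC18A2) to 6.54 (TH). The ductal keratin KRT19 fell by 0.99 with wild type KLF11, fell by 1.51 with A347S and fell by 1.06 with Δ486. The other epithelial markers had no called change, and the mean over the list of 6 was at most 9.23 on the wild type KLF11, A347S and Δ486 arrays, 9.32 and 9.39 with EAPP, and 9.41 and 9.44 with EV. KRT8 and KRT18 passed the adjusted p alone with A347S (-0.43 and -0.25) and with Δ486 (-0.33 and -0.35), short of 1.5-fold. SPARC, a matrix protein gene of mesenchymal-like carcinoma lines, fell with A347S and Δ486 (-0.85 and -0.83). It also differed by -0.57 with wild type KLF11 and by -0.58 with EAPP, neither of them called. The other mesenchymal markers had no called change. VIM, at a mean of 12.26, differed by -0.31 with wild type KLF11, -0.48 with A347S, -0.38 with Δ486 and -0.13 with EAPP. With wild type KLF11, A347S and Δ486 it passed the adjusted p alone (0.011, 0.00055 and 0.0029 by limma). CDH2, at a mean of 5.09, differed by -0.19, 0.02, -0.01 and 0.01. CD14 rose with A347S (0.59), while the defining leukocyte gene PTPRC read 3.44 to 3.75 on every array and the mean of the 3 leukocyte markers was 4.99 and 5.05 with A347S and 4.70 and 4.80 with EV. With Δ486 CD14 differed by 0.579 (adjusted p = 0.0060 by limma), just short of 1.5-fold. It differed by 0.37 with wild type KLF11 (adjusted p = 0.053) and by 0.28 with EAPP (adjusted p = 0.53). The part of these shifts in the amine enzymes was not tested.

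The deposited table holds no detection calls. As a rough guide to dim signal, the 354 clusters of olfactory receptors, which most epithelia do not express, had means with a median of 4.44 and a 95th percentile of 5.74, although levels of different clusters also depend on their probes. MAOA (mean 4.57 over the 10 arrays), MAOB (4.85), HNMT (5.02), AOC2 (5.11) and DDC (5.48) lay within that range. AOC3 (7.21), PAOX (6.88), SMOX (8.96) and SAT1 (10.07) lay above all of the receptor clusters. The other cluster of AOC3, at a mean of 5.09 to 5.43 by group, lay within the range, so the 2 clusters of AOC3 disagree on its level. Over the 10 arrays SAT1 varied most, from 9.59 to 10.63, and MAOA least, from 4.45 to 4.75.

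**Figure D2:**
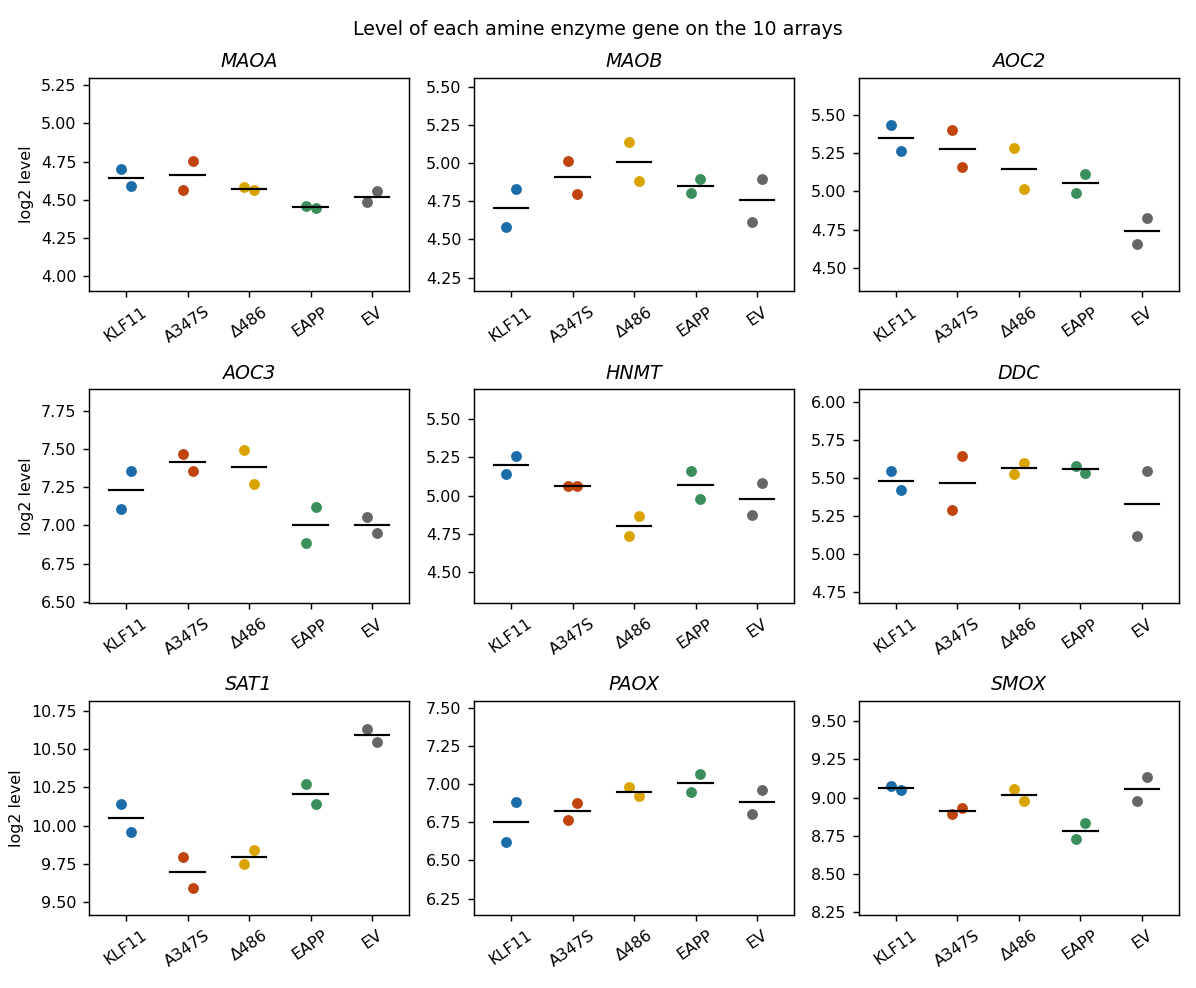
Log2 level of each of the 9 genes (vertical axis, 1.4 log2 units in every panel) on the 2 arrays (points) of each group, wild type KLF11, A347S, Δ486, EAPP and EV, with the mean as a bar. AOC2 lies above both EV arrays and SAT1 below both EV arrays with every construct, and MAOB overlaps EV throughout.

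MAOA, which prefers serotonin and noradrenaline, had log2 levels of 4.70 and 4.59 with wild type KLF11, 4.57 and 4.75 with A347S, 4.59 and 4.56 with Δ486, 4.46 and 4.45 with EAPP, against 4.48 and 4.56 with EV. The wild type KLF11, A347S and Δ486 arrays lay just above both EV arrays and the EAPP arrays just below them. Each of these gaps was smaller than the distance between the EV arrays. The difference from EV was 0.13 for wild type KLF11 (95% interval -0.06 to 0.31, adjusted p = 0.38) and 0.14 for A347S (-0.05 to 0.33, adjusted p = 0.27). For Δ486 it was 0.05 (-0.13 to 0.24, adjusted p = 0.69) and for EAPP -0.07 (-0.25 to 0.12, adjusted p = 0.87). None passed, and none of the intervals reached a 1.5-fold change either way. EAPP was below wild type KLF11 by 0.19 (95% interval -0.38 to -0.01 as a difference, adjusted p = 0.18), with no overlap.

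MAOB, which prefers phenylethylamine, had levels of 4.58 and 4.83 with wild type KLF11, 5.01 and 4.80 with A347S, 5.14 and 4.88 with Δ486, 4.81 and 4.90 with EAPP, against 4.62 and 4.90 with EV. Every construct overlapped EV, and the order of the means (Δ486, A347S, EAPP, EV, wild type KLF11) had no neighbours that were apart. The difference from EV was -0.05 for wild type KLF11 (95% interval -0.35 to 0.25, adjusted p = 0.86), 0.15 for A347S (-0.15 to 0.45, adjusted p = 0.47), 0.25 for Δ486 (-0.05 to 0.55, adjusted p = 0.22) and 0.09 for EAPP (-0.20 to 0.39, adjusted p = 0.89). These intervals also stay inside a 1.5-fold change. Both Δ486 arrays lay above both wild type KLF11 arrays, at a difference of 0.30 (95% interval 0.00 to 0.60, adjusted p = 0.47). At levels this close to those of receptor genes, a change in transcripts can be understated on the log2 scale, by an amount that was not measured.

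Among 15853 clusters with 1 symbol and a mean of at least 5, those whose levels over the 10 arrays were most like MAOA were ZNF614 (Pearson r = 0.94), CCDC25 (r = 0.94) and CCDC43 (r = 0.93). For MAOB they were CELF4 (r = 0.94), OR1N1 (r = 0.94) and RASL11B (r = 0.93). These are descriptions over 10 arrays that share groups and a normalisation, picked as the highest of many.

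AOC2, a copper amine oxidase best known from the retina, had levels of 5.44 and 5.26 with wild type KLF11, 5.40 and 5.16 with A347S, 5.28 and 5.01 with Δ486, 4.99 and 5.11 with EAPP, against 4.65 and 4.82 with EV. All 8 construct arrays were higher than both EV arrays. The means ran in the order wild type KLF11, A347S, Δ486, EAPP and EV, in which each construct overlapped its neighbour and only EAPP and EV were apart. AOC2 rose with wild type KLF11 by 0.61 ± 0.12 (SE), which is 1.53-fold (95% interval 0.34 to 0.88, adjusted p = 0.0082). The difference was 0.54 for A347S (adjusted p = 0.0080) and 0.41 for Δ486 (adjusted p = 0.038), short of 1.5-fold, and 0.31 for EAPP (95% interval 0.04 to 0.59, adjusted p = 0.51). The call with wild type KLF11 did not hold without wild type KLF11 replicate 1 (0.52, adjusted p up to 0.070 over the arrays left out) or without EV replicate 1 (0.52). The adjusted p of A347S was up to 0.067 (lost without A347S replicate 1 or EV replicate 1) and that of Δ486 up to 0.23 (lost without Δ486 replicate 1 or either EV array).

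AOC3, or vascular adhesion protein 1, a surface oxidase of endothelium, fat and smooth muscle, had levels of 7.11 and 7.36 with wild type KLF11, 7.47 and 7.36 with A347S, 7.50 and 7.27 with Δ486, 6.88 and 7.12 with EAPP, against 7.06 and 6.95 with EV. The wild type KLF11, A347S and Δ486 arrays lay above both EV arrays, and the EAPP arrays enclosed those of EV. The difference was 0.23 for wild type KLF11 (95% interval -0.04 to 0.50, adjusted p = 0.25), 0.41 for A347S (0.14 to 0.68, adjusted p = 0.028), 0.38 for Δ486 (0.11 to 0.65, adjusted p = 0.048) and 0.00 for EAPP (-0.27 to 0.27, adjusted p = 1.00), all short of 1.5-fold. With A347S the adjusted p was 0.065 to 0.15 when any of the 4 arrays was left out, and with Δ486 it was up to 0.25, lost without Δ486 replicate 1 or either EV array. Its other cluster, at a mean of 5.09 to 5.43 by group, gave 0.02, 0.19, 0.15 and -0.14 for the same 4 comparisons, and none passed. The defining endothelial genes PECAM1 and CDH5 averaged 4.71 and 5.38 over the arrays.

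HNMT, which inactivates histamine by methylation, had levels of 5.14 and 5.26 with wild type KLF11, 5.06 and 5.06 with A347S, 4.73 and 4.86 with Δ486, 5.16 and 4.98 with EAPP, against 4.87 and 5.08 with EV. The wild type KLF11 arrays lay above and the Δ486 arrays below both EV arrays. The difference from EV was 0.22 for wild type KLF11 (95% interval 0.00 to 0.44, adjusted p = 0.17) and -0.18 for Δ486 (-0.40 to 0.05, adjusted p = 0.24). Between the constructs, Δ486 was below wild type KLF11 by 0.40 (interval of the difference -0.62 to -0.18), and this too missed the threshold (adjusted p = 0.33). A347S and EAPP overlapped EV.

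DDC, which makes dopamine and serotonin by decarboxylation, had levels of 5.54 and 5.42 with wild type KLF11, 5.29 and 5.64 with A347S, 5.53 and 5.60 with Δ486, 5.58 and 5.53 with EAPP, against 5.12 and 5.55 with EV. The EV arrays were 0.43 apart and every construct overlapped them. The differences were 0.13 to 0.23, with intervals from -0.19 at the lowest to 0.56 at the highest.

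SAT1, the rate-limiting enzyme of polyamine catabolism, had levels of 10.14 and 9.96 with wild type KLF11, 9.79 and 9.59 with A347S, 9.75 and 9.84 with Δ486, 10.27 and 10.14 with EAPP, against 10.63 and 10.55 with EV. All 8 construct arrays were lower than both EV arrays, and the A347S and Δ486 arrays were the lowest. SAT1 fell with A347S by 0.90 ± 0.10 (SE), to a level 1.86-fold lower than with EV (95% interval of the log2 difference -1.12 to -0.68, adjusted p = 0.00017). It fell with Δ486 by 0.80 ± 0.10, or 1.74-fold lower (-1.02 to -0.58, adjusted p = 0.00057). With wild type KLF11 the difference was -0.54 (-0.76 to -0.32, adjusted p = 0.0052), 1.46-fold lower and so short of the fold threshold, which it passed without wild type KLF11 replicate 1 (-0.63). With EAPP it was -0.39 (-0.61 to -0.17, adjusted p = 0.30). These are bulk RNA levels, in which fewer cells with a transcript and less of it per cell cannot be told apart.

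The mutants were also compared with wild type KLF11 and with each other for SAT1. A347S lay below wild type KLF11 by 0.36 (95% interval of the difference -0.58 to -0.14, adjusted p = 0.20) and Δ486 by 0.26 (-0.48 to -0.04, adjusted p = 0.42), with no overlap of arrays in either case. EAPP was 0.16 above wild type KLF11 (-0.06 to 0.38, adjusted p = 0.37). EAPP was above A347S by 0.51 (0.29 to 0.73, adjusted p = 0.0046) and above Δ486 by 0.41 (0.19 to 0.63, adjusted p = 0.020), comparisons added after the values were seen, in which 23.4% and 15% of all clusters passed the adjusted p. The EAPP and A347S difference passed whichever of the 4 arrays was left out, with an adjusted p of 0.0081 to 0.045. That between EAPP and Δ486 passed in 1 of 4 such fits, with an adjusted p of up to 0.11 (without Δ486 replicate 1, Δ486 replicate 2 or EAPP replicate 1 it was lost). A347S and Δ486 overlapped, at a difference of -0.10 (-0.32 to 0.12). Of the other 8 genes, AOC3 alone passed the adjusted p between mutants, being lower with EAPP than with A347S (-0.41, 95% interval -0.68 to -0.14, adjusted p = 0.035). It was lost without A347S replicate 1, A347S replicate 2 or EAPP replicate 1, with an adjusted p of up to 0.20. The other AOC3 cluster differed by -0.34 between EAPP and A347S (adjusted p = 0.22 by limma), and its arrays overlapped. Between A347S and Δ486, 0 of the 9 passed, as did 0% of all clusters.

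PAOX, the peroxisomal oxidase of the acetylated polyamines made by SAT1, had levels of 6.62 and 6.88 with wild type KLF11, 6.77 and 6.88 with A347S, 6.98 and 6.92 with Δ486, 6.95 and 7.06 with EAPP, against 6.80 and 6.96 with EV. Every construct overlapped EV, at differences of -0.13 to 0.12. The EAPP arrays lay above the wild type KLF11 arrays by 0.25 (95% interval 0.02 to 0.49, adjusted p = 0.16).

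SMOX, which oxidises spermine directly, had levels of 9.08 and 9.05 with wild type KLF11, 8.89 and 8.93 with A347S, 9.06 and 8.98 with Δ486, 8.73 and 8.83 with EAPP, against 8.98 and 9.13 with EV. The EAPP arrays were the lowest of all 10 and the A347S arrays came next. EAPP differed from EV by -0.28 (95% interval -0.46 to -0.10, adjusted p = 0.37) and from wild type KLF11 by -0.28 (-0.46 to -0.10, adjusted p = 0.054). Wild type KLF11 and EV overlapped, at a difference of 0.01 (-0.18 to 0.19).

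**Figure D3:**
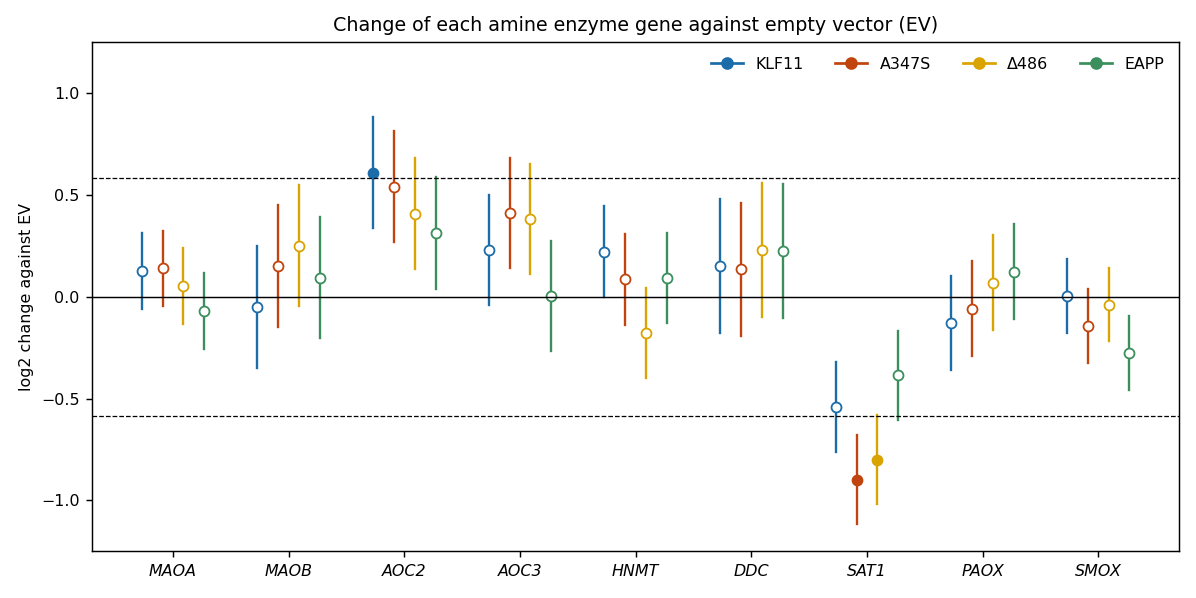
Log2 change of each of the 9 genes against EV (vertical axis) for wild type KLF11, A347S, Δ486 and EAPP, with 95% intervals as lines. Filled points were called (AOC2 with wild type KLF11, SAT1 with A347S and Δ486) and dashed lines mark a 1.5-fold change.

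Counted together, 1 of the 9 genes rose with wild type KLF11 (AOC2), 1 fell with A347S and 1 fell with Δ486 (SAT1 in both), and 0 changed with EAPP. The same rule called 3.99%, 8.98%, 5.61% and 0.00477% of all clusters in these comparisons, so counts of 0 and 1 in 9 are near the background. By the adjusted p alone, 2, 3, 3 and 0 of the 9 passed, against 17.3%, 28.4%, 22.4% and 0.00477% of all clusters. At an unadjusted p under 0.05 there were 2, 3, 3 and 3, against 29.4%, 37.6%, 34.3% and 8.73% of all clusters, and the single cluster called with EAPP was none of them. Arrays did not overlap those of EV for 5, 5, 5 and 4 of the 9, against 57.6%, 63.6%, 61.7% and 39.3% of all clusters. The median change of the 9 was 0.13, 0.13, 0.07 and 0.09, against -0.02, 0.01, 0.02 and 0.00 over all clusters. The 4 comparisons share the EV arrays, so their values are not independent of each other. Against wild type KLF11, 0 of the 9 passed the adjusted p with A347S, Δ486 or EAPP, where 0%, 0% and 10.8% of all clusters did. The counts at an unadjusted p under 0.05 were 1, 3 and 4, against 14.4%, 10.5% and 25.2% of all clusters.

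The genes around these enzymes were followed in 6 lists with 69 of 79 genes measured, chosen by function with earlier results of these data known. The counts of each list beside the shares of all clusters are therefore descriptions. Aldehyde clearance had the most called falls for its size. Of 8 measured genes, 0 rose in any comparison with EV, and 2 fell with wild type KLF11, 4 with A347S, 3 with Δ486 and 0 with EAPP, where 1.78%, 5.35%, 3.23% and 0% of all clusters fell. The median change of the list was -0.34, -0.35, -0.36 and -0.06, beside medians over all clusters from -0.02 to 0.02.

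ALDH7A1, a dehydrogenase of lysine catabolism and of other aldehydes, had levels of 9.11 and 9.18 with wild type KLF11, 9.16 and 8.84 with A347S, 9.03 and 9.11 with Δ486, 9.99 and 10.06 with EAPP, against 10.12 and 10.17 with EV. The 6 arrays of wild type KLF11, A347S and Δ486 were all below the 4 arrays of EAPP and EV. The log2 change was -0.999 with wild type KLF11 (adjusted p = 0.00044), -1.15 with A347S (adjusted p = 6.9e-05) and -1.08 with Δ486 (adjusted p = 0.00020), all called, and -0.12 with EAPP (adjusted p = 0.81). ALDH1B1, a mitochondrial acetaldehyde dehydrogenase, averaged 8.96 with wild type KLF11, 8.49 with A347S, 8.85 with Δ486, 9.75 with EAPP and 9.79 with EV. It fell with the same 3 constructs, at -0.83 (wild type KLF11), -1.30 (A347S) and -0.94 (Δ486), and EAPP differed from EV by -0.04. Set directly against wild type KLF11, EAPP was higher by 0.88 for ALDH7A1 (adjusted p = 0.0014) and by 0.79 for ALDH1B1 (adjusted p = 0.0025). ALDH2, the main mitochondrial aldehyde dehydrogenase, fell with A347S and Δ486 (-0.61 and -0.62), and ALDH3A2, which clears fatty aldehydes, with A347S (-0.68). Uncalled levels were also below EV. ALDH2 averaged 6.63 with wild type KLF11 (EV 7.14), and ALDH3A2 8.24 with wild type KLF11 and 8.18 with Δ486 (EV 8.74). By the adjusted p alone, 4 of the 8 fell with each of wild type KLF11, A347S and Δ486. Of all clusters, 17.3%, 28.4% and 22.4% passed it in either direction. The calls of ALDH2 were lost without EV replicate 2 and, for A347S, also without A347S replicate 2. That of ALDH3A2 was lost under quantile and loess scaling.

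In polyamine synthesis, 1 of 17 measured genes fell with each of wild type KLF11 (ARG2), A347S and Δ486 (ODC1), 0 fell with EAPP and 0 rose, with list medians of -0.08, -0.05, -0.11 and 0.01. Of all clusters, 1.78%, 5.35%, 3.23% and 0% fell, so 1 of 17 is near the share for A347S. ODC1, the rate-limiting enzyme of polyamine synthesis, had levels of 11.45 and 11.48 with wild type KLF11, 11.23 and 11.10 with A347S, 11.35 and 11.31 with Δ486, 11.80 and 11.91 with EAPP, against 12.07 and 12.01 with EV. All 8 construct arrays were below EV, in the same order of constructs as for SAT1. ODC1 fell by 0.88 with A347S (adjusted p = 6.1e-05) and by 0.72 with Δ486 (adjusted p = 0.00031). It was -0.58 with wild type KLF11 (adjusted p = 0.0012), just short of 1.5-fold, and -0.19 with EAPP (adjusted p = 0.53). ARG2, the mitochondrial arginase that supplies ornithine, fell with wild type KLF11 by 0.64 (adjusted p = 0.0061), and not past the threshold without EV replicate 2 (-0.57).

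Among 11 measured genes of monoamine synthesis, conjugation and methylation, 1 rose with A347S, where 3.63% of all clusters rose, and 0 were called otherwise. The median change of the list was -0.06, 0.10, 0.16 and 0.02 with wild type KLF11, A347S, Δ486 and EAPP. The gene that rose was TPH1, the tryptophan hydroxylase of peripheral serotonin synthesis, with levels of 4.21 and 4.55 with A347S and 3.72 and 3.81 with EV (0.61, adjusted p = 0.0082). Those levels are in the range of the receptor genes, and the call was lost under loess scaling and without A347S replicate 2 or EV replicate 1 (0.44 to 0.79 over the 4 arrays left out). None of 12 other amine and flavin oxidases, which include the lysyl oxidases and the histone demethylase KDM1A, was called with any construct against EV by limma, and their median changes were 0.01 to 0.04. Among 10 transporters, with median changes of 0.02 to 0.06, 2 fell with A347S, where 5.35% of all clusters fell. They were the polyamine transport ATPase ATP13A3 (-0.63) and the vesicular polyamine transporter SLC18B1 (-0.61). Both calls were lost without A347S replicate 2. SLC18B1 was also lost without EV replicate 1, and ATP13A3 under loess scaling. ATP13A3 also averaged 10.69 with wild type KLF11 and 10.61 with Δ486, against 11.08 with EV, and SLC18B1 5.71 and 5.73, against 6.26. By the adjusted p alone, 2 of the 10 fell and 1 rose with each of wild type KLF11, A347S and Δ486. Of all clusters, 17.3%, 28.4% and 22.4% passed it in either direction.

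Of 11 measured regulators known to act at monoamine oxidase promoters, the only one that rose was KLF11 itself. It is the gene that the virus carried, and its calls have the limits given above. The list medians were -0.15 to -0.10. SP1, the GC box activator, had levels of 8.67 and 8.79 with wild type KLF11, 8.58 and 8.10 with A347S, 8.63 and 8.47 with Δ486, 9.18 and 9.13 with EAPP, against 9.52 and 9.40 with EV. It was lower than EV on all 8 construct arrays, and fell with wild type KLF11 (-0.73), A347S (-1.12) and Δ486 (-0.91), while the difference was -0.31 with EAPP (adjusted p = 0.58). The SP1 call with wild type KLF11 was lost without wild type KLF11 replicate 1 or EV replicate 1. SP4, its relative, fell with wild type KLF11 (-0.75) and A347S (-0.69). JUN fell with A347S (-0.68) and Δ486 (-0.59), the second of these lost without Δ486 replicate 1 or EV replicate 2 and under quantile and loess scaling. SIRT1, a deacetylase, fell with A347S (-0.67), a call lost without A347S replicate 2. In all, 2 of the 11 fell with wild type KLF11, 4 with A347S, 2 with Δ486 and 0 with EAPP, beside the shares of all clusters given for aldehyde clearance. Uncalled means were also below EV for JUN with wild type KLF11 (9.11, EV 9.63) and SP4 with Δ486 (7.43, EV 7.93). SIRT1 averaged 9.94 with wild type KLF11 and 9.88 with Δ486 (EV 10.36). By the adjusted p alone, 5 of the 11 fell with each of wild type KLF11, A347S and Δ486, again beside the shares given for aldehyde clearance.

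**Figure D4:**
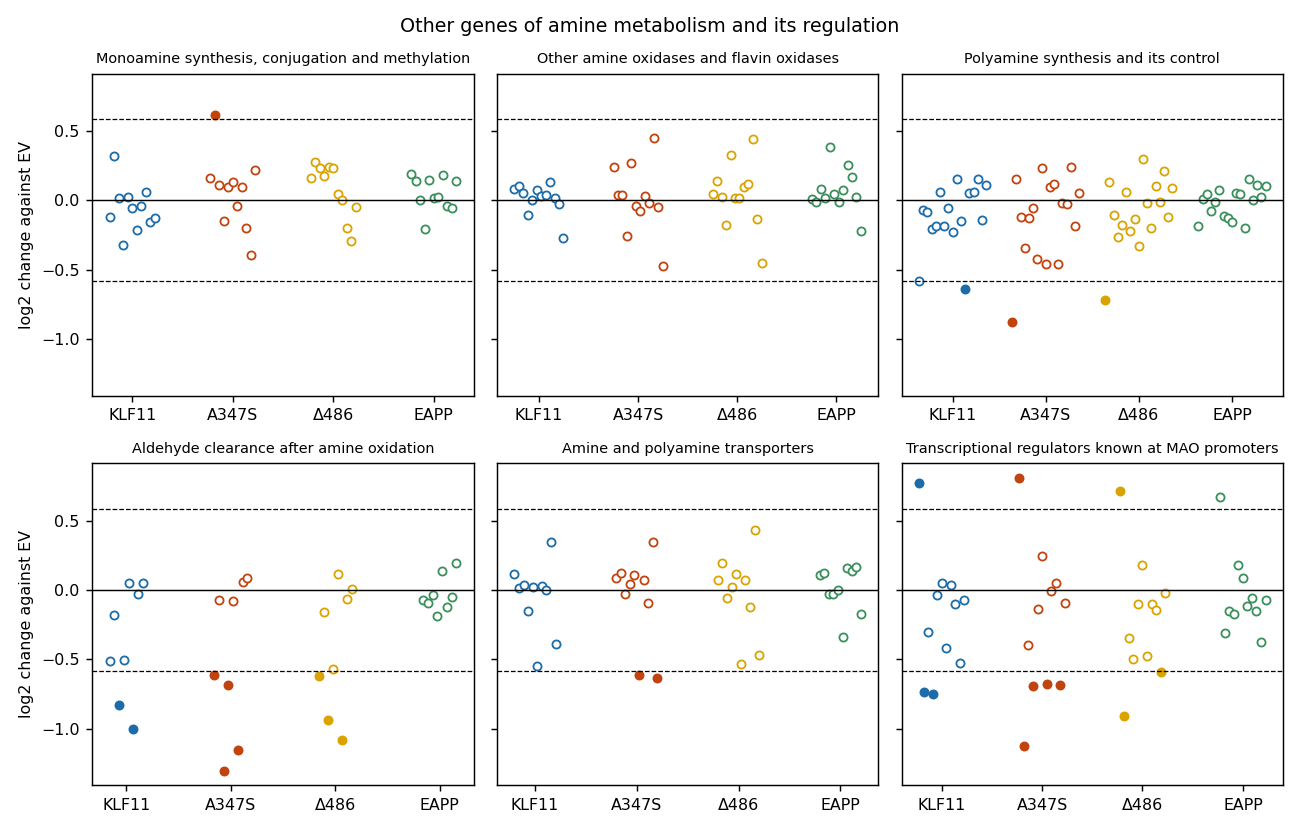
Log2 change against EV (vertical axis) of the 69 measured genes in 6 lists, with wild type KLF11, A347S, Δ486 and EAPP along the horizontal axis and a point for each gene, filled where called; dashed lines mark a 1.5-fold change. The aldehyde clearance genes reach -1.30 with A347S and 0 called with EAPP.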

How the data were processed

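The authors deposited log2 expression values of 28869 transcript clusters of the Affymetrix Human Gene 1.0 ST array, after background subtraction and Robust Multiarray normalisation; the processing notes name Partek 6.6. No source used here names a genome build for the array. Of these clusters 20961 carried a gene symbol and were tested, 19229 with a single symbol and 1732 with several, which were not named. Gene numbers of 19198 matched RefSeq and 0 names changed.

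Means of the 5 groups were fitted over the 10 arrays (limma 3.58.1, R 4.3.3; 5 residual degrees of freedom, 4.54 added by moderation), and p-values were adjusted over all tested clusters by the Benjamini-Hochberg method. A gene was called at an adjusted p under 0.05 and a fold of at least 1.5. Errors are moderated standard errors and intervals are at 95%. The number of arrays limits the precision; the median standard error was 0.095. The fit was tested on simulated data.

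The members, lists, markers and tests were chosen with earlier results of these data known. Named are the 9 members, KLF11, the 3 genes most like MAOA or MAOB, and in each list up to 3 called genes with the smallest adjusted p. ALDH2 and SP4, and the markers KRT8, KRT18, KRT19, SPARC, VIM, CDH2 and CD14, were named beside these after their values were seen. The comparisons between mutants and the adjusted p of members with an array left out were also added then. Promoter windows are from RefSeq (GRCh38.p14). Replicate numbers were checked for pairing. The correlation between groups of the difference of replicate 1 and 2 was -0.35 to 0.15 over 10 pairs of groups, so they were not taken as pairs. The table holds no scan dates or batches. Alternatives covered the threshold, test, scaling, dim clusters, clusters tested, a replicate block and each array left out. Plots used matplotlib 3.10.9 under Python 3.11.15. Promoter binding data were not analysed here.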

Additional observations from a re-analysis of the deposited data

How the results depend on the processing

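With the adjusted p alone the number of the 9 genes passing against EV was 2 for wild type KLF11 (AOC2 and SAT1), 3 for A347S and 3 for Δ486 (AOC2, AOC3 and SAT1 in both), in place of 1, 1 and 1. With an absolute log2 change of at least 1.5, the threshold of the methods, and with the methods' t-test after Benjamini-Hochberg adjustment, it was 0, 0 and 0. With an array left out it was 0 to 1 for wild type KLF11 (0 without EV replicate 1), 1 to 2 for A347S (2 without A347S replicate 2 or EV replicate 2, AOC2 rising by 0.66 or 0.63) and 1 for Δ486. EAPP against EV, and each mutant against wild type KLF11, gave 0 in every setting run. The methods' t-test without adjustment, the fit to the arrays of 2 groups, variance trend, scalings, symbol and cluster choices and the replicate block moved no count, and the block changed no call of a member. Of 608 values recomputed for the members against EV, 8 lost and 8 gained a call and 0 reversed, while 13 of 33 uncalled changes took the other sign in at least 1 setting, the largest of them 0.15 in size. A filter at a mean of 5 removed MAOA and MAOB. Scaling moved the median of all clusters by under 0.04, but the split of calls with A347S was 936 risen and 849 fallen under loess scaling against 761 and 1121 as deposited, and with Δ486 567 and 557 against 499 and 677. Of the called changes of KLF11, those with wild type KLF11 and Δ486 were lost when only the arrays of the 2 groups were fitted. All 3 of them, and the A347S calls of TPH1 and ALDH2, were lost under the methods' t-test without adjustment. Signals near those of receptor genes and 2 arrays a group limit what could be detected for MAOA, MAOB, AOC2, HNMT and DDC, and for the dimmer cluster of AOC3.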
